A study of Mus musculus with 16 samples.

Results

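Autophagy and lysosome genes were described as a set of 37, chosen by symbol for their known roles, out of 56268 genes in the table. They comprised 22 genes of the autophagy machinery, 7 lysosomal hydrolases and 8 other genes, namely 4 lysosomal membrane proteins, 2 lumenal cofactors and 2 transcription factors. Levels were FPKM, the sequenced fragments of a gene scaled by its transcript length and by the depth of the library, and 36 of the 37 genes reached 1 FPKM in at least 4 of 16 libraries and were tested. The exception was Atg2a, which encodes a lipid transfer protein of the growing autophagosome. Atg2a was listed at 0 in every library except cKO library 1, at 0.00851 FPKM. Whether Atg2a RNA was absent or was missed in counting was not tested.

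RNA sequencing had been done on colonic epithelial cells of mice in 4 groups of 4 libraries each. The cKO_DSS group carried a floxed Rictor allele together with Villin-Cre and had been given 3% DSS, dextran sulfate sodium, a chemical that injures the colon lining and causes colitis. WT_DSS mice carried Villin-Cre alone and had the same 3% DSS, cKO mice carried floxed Rictor with Villin-Cre and had normal water, and WT mice carried Villin-Cre alone and had normal water. Rictor encodes an essential subunit of mTOR complex 2, and the study asked what this complex does in colitis. Every group therefore carried the Cre transgene, which the Villin promoter drives in intestinal epithelium, and no group lacked it. Ages, the days of DSS and whether each library came from its own animal were not given in the sources used here, so p-values measure the spread between libraries, which may be technical.

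Macroautophagy begins when the ULK kinase complex and then a lipid kinase complex containing Beclin 1 mark a membrane site; conjugation enzymes next attach ATG8 proteins (the LC3 and GABARAP families) to the growing membrane, and receptors such as p62 (Sqstm1) bring cargo to them. The closed autophagosome fuses with a lysosome, where acid hydrolases digest its content. Many genes of both steps are targets of the transcription factors TFEB and TFE3, which mTOR complex 1 holds inactive when nutrients are plentiful. In the intestine, autophagy genes are known for supporting Paneth and goblet cell secretion, and Atg16l1 for its link with Crohn's disease.

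TFEB and TFE3 bind an E-box with the core CACGTG, and the longer palindrome TCACGTGA is part of the motif described for coordinated lysosomal genes. The 250 bases before the transcription start were read from RefSeq on the build GRCm38.p6 for 30 of the 37 genes; Atg12, Atg16l1, Becn1, Ctsb, Map1lc3a, Npc1 and Rb1cc1 are named only. Both motifs read the same on both strands, and the longer one contains the shorter. The core occurred before 9 of the 30 genes (30%: Atg3, Atg5, Atg7, Ctsa, Ctsd, Ctsl, Gla, Lamp1 and Mcoln1), against 6.86% of all 27025 genes in the table. TCACGTGA occurred before 5 of the 30 (16.7%: Atg3, Ctsa, Ctsd, Gla and Mcoln1), against 0.907% of all genes. The windows of 4 genes are shown because they span the counts of the motif. Lamp1 (chr8:13158911-13159160, plus strand) had 4 copies of CACGTG, Mcoln1 (chr8:3500269-3500518, plus strand) and Ctsd (chr7:142387828-142388077, minus strand) had 2 each, and Lamp2 (chrX:38456461-38456710, minus strand), the member with the largest DSS fold change in WT, had 0. They are written 5′ to 3′ along the gene, ending just before the RefSeq start, with each CACGTG in capitals. In the deposited annotation the 5′ end of Ctsd is at base 142388038 and that of Mcoln1 at base 3500457. Both windows thus lie partly inside the gene as counted.
Lamp1: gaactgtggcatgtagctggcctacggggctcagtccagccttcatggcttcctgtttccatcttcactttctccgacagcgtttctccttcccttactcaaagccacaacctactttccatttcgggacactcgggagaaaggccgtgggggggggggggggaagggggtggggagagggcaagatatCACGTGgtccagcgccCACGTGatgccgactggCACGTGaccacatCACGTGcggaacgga
Mcoln1: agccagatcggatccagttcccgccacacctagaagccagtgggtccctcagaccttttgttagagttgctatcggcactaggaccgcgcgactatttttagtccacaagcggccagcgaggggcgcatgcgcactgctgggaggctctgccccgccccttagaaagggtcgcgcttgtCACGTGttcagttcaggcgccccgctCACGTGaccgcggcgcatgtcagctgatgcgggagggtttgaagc
Ctsd: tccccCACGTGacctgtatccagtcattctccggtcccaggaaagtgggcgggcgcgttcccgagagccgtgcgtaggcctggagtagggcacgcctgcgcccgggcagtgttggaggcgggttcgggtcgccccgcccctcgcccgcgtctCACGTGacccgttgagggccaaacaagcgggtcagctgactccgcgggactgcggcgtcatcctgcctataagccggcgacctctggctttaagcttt
Lamp2: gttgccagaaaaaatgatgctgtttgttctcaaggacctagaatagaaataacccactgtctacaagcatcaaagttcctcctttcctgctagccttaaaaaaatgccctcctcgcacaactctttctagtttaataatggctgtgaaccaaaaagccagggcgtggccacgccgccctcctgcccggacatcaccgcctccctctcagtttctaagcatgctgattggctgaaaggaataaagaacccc

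A match is a run of letters and not a measured binding site. Of the 9 genes with CACGTG, 1 rose (Atg5) and 1 fell (Mcoln1) with DSS in WT, and 1 rose (Ctsl) with DSS in cKO. Of the 20 tested genes whose windows lacked it, 5 rose and 1 fell with DSS in WT, and 3 rose with DSS in cKO. Of all genes tested, 15% rose and 13.5% fell with DSS in WT, and 8.07% rose and 6.64% fell in cKO; the shares were not compared by a test.

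Recovered read totals ran between 13911823 and 16414914 per library. The share of reads from mitochondrial genes was lower with DSS in both genotypes, without overlap. It was 4.74% to 6.95% in cKO_DSS against 7.67% to 15.1% in cKO, and 5.56% to 7.34% in WT_DSS against 7.66% to 11.3% in WT. The part of this share in the differences below was not tested. The targeted gene was checked first: Rictor was at 2.96, 2.78, 1.92 and 2.36 FPKM in cKO_DSS and at 3.85, 3.69, 2.82 and 4.16 FPKM in WT_DSS. On water it was at 2.75, 2.33, 2.57 and 2.22 FPKM in cKO and at 3.14, 3.08, 2.80 and 2.17 FPKM in WT, so both genotype pairs overlapped. The log2(FPKM + 1) difference was -0.40 ± 0.12 (SE) after DSS and -0.13 ± 0.12 on water (limma with Benjamini-Hochberg adjustment, adjusted p = 0.0761 and 0.582). FPKM covers the whole gene, so transcripts lacking only deleted exons would still count, and reads per exon were not examined. The reason for the overlap was not tested, so these levels do not establish the genotype labels. Epithelial markers were high in all groups, as shown by Epcam at 639 to 866 FPKM, while the macrophage markers were far lower, up to 7.92 FPKM for Lyz2 and 2.51 FPKM for Cd68 and at or below 0.562 FPKM for Csf1r. Libraries also differed by sex-linked RNA: Xist reads numbered 0 to 4 in cKO_DSS and 1 to 5275 in WT_DSS, against 12235 to 25600 in cKO and 10022 to 17416 in WT. Summed reads of the Y-linked genes Ddx3y, Eif2s3y, Kdm5d and Uty were 2924 to 4533 in cKO_DSS and 2681 to 3533 in WT_DSS, against 0 to 1856 in cKO and 0 to 1377 in WT. DSS and this sex-linked difference therefore cannot be told apart in either DSS comparison below. Single libraries also held both kinds of reads. Xist and summed Y-linked reads were 10162 and 1377 in WT library 2, 12235 and 1856 in cKO library 2, and 5275 and 2681 in WT_DSS library 2. Both were also present in WT libraries 1 and 4 and cKO library 1. In WT library 3 and cKO libraries 3 and 4, Y-linked reads were 0. Whether a library pooled RNA of several animals was not tested.

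In WT libraries on water the set covered a wide span of levels per transcript length. Psap, which encodes prosaposin, a precursor of sphingolipid hydrolase activators, ranked first at 242 ± 22.3 FPKM (SD, n = 4). Lamp1, a heavily glycosylated protein of the lysosomal membrane, followed at 171 ± 22.3 FPKM, and Gabarap of the ATG8 family at 138 ± 22.9 FPKM. The lowest of the 36 was Tfe3 at 3.13 ± 0.241 FPKM. Neighbours in this order often overlapped: Ctsb, Ctsd and Hexa stood at 74.5 ± 6.39, 70.2 ± 10.1 and 70.02 ± 4.76 FPKM (SD, n = 4 each). The median of the WT means was 59.3 FPKM over the 7 hydrolases and 8.42 FPKM over the 21 machinery genes above the filter, against 5.73 FPKM over all genes tested. Spread between WT libraries was widest for Tfeb, with a coefficient of variation of 26.0%, and narrowest for Atg12, at 5.78%.

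With DSS in WT colonic epithelium, 11 of the 36 genes changed, 9 higher and 2 lower, which is 30.6% against 28.5% of all 13255 genes tested. All 7 machinery genes that changed rose, and they spread over the initiation complex, the lipid kinase complex, the conjugation enzymes and the ATG8 family. Among the 7 hydrolases 1 rose (Ctsb) and 1 fell (Ctsz), and among the 8 other genes 1 rose (Lamp2) and 1 fell (Mcoln1). The median log2 difference was 0.11 over 21 machinery genes and -0.03 over 7 hydrolases, beside -0.01 over all genes tested. In bulk RNA, fewer cells of a type and less RNA per cell cannot be told apart. Higher calls made up 15% of all genes and lower calls 13.5%. Groups did not overlap for 9 of the 36 genes (25%), beside 28.3% of all genes tested.

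Rb1cc1 encodes FIP200, the scaffold of the ULK complex. It was at 9.66, 9.07, 7.39 and 9.41 FPKM in WT_DSS and at 5.89, 4.78, 4.60 and 4.34 FPKM in WT. Every WT_DSS library was above every WT library, and the log2 difference was 0.74 ± 0.15 (SE; limma with Benjamini-Hochberg adjustment, adjusted p = 0.0035). Ulk2 encodes a kinase of the same complex, at 5.68, 5.17, 4.17 and 5.35 FPKM in WT_DSS against 3.85, 3.75, 3.38 and 2.41 FPKM in WT. The groups did not overlap, with a difference of 0.49 ± 0.13 (limma adjusted p = 0.0118). Atg13, the subunit that links the kinase to FIP200, rose by 0.30 ± 0.08 (limma adjusted p = 0.0161), although WT_DSS library 2 lay below WT library 4. Atg14, which directs the Beclin 1 complex to autophagosome formation sites, had 4.35 to 5.64 FPKM in WT_DSS and 3.43 to 4.30 FPKM in WT. Its difference of 0.27 ± 0.09 (limma adjusted p = 0.0337) was lost without WT library 2 or 3 or without WT_DSS library 1 or 4, with adjusted p up to 0.113.

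Among the conjugation enzymes, Atg12 is the ubiquitin-like protein joined to Atg5, and the pair forms the ligase that lipidates ATG8 proteins. Atg12 was at 9.21, 9.37, 8.85 and 10.3 FPKM in WT_DSS against 7.56, 7.05, 6.59 and 6.92 FPKM in WT. All WT_DSS libraries were higher, and the difference was 0.38 ± 0.09 (limma adjusted p = 0.00741). Atg5 spanned 18.5 to 25.9 FPKM in WT_DSS and 15.1 to 18.4 FPKM in WT, a narrow gap between groups. It rose by 0.46 ± 0.13 (limma adjusted p = 0.0177), a call lost without WT_DSS library 2 or 4, with adjusted p up to 0.0558. The other 4 conjugation genes, Atg3, Atg4b, Atg7 and Atg16l1, were not called, with log2 differences between -0.18 and 0.18.

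The 5 ATG8 genes did not move alike with DSS in WT. Map1lc3b encodes LC3B, the usual marker protein of autophagosomes, and stood at 24.2, 22.9, 20.7 and 26.8 FPKM in WT_DSS against 17.6, 15.97, 15.5 and 17.7 FPKM in WT. No libraries of the groups overlapped, and it had the smallest adjusted p of the set in this comparison (difference 0.48 ± 0.09, limma adjusted p = 0.00213). Map1lc3a, which encodes the related LC3A, was at 15.3, 11.7, 18.6 and 4.55 FPKM in WT_DSS against 16.5, 16.3, 23.3 and 24.2 FPKM in WT. Gabarap was at 104, 109, 127 and 84.5 FPKM in WT_DSS against 112, 132, 139 and 167 FPKM in WT. Both overlapped between groups and neither passed the test (differences -0.76 ± 0.33 and -0.37 ± 0.15, limma adjusted p = 0.0908 and 0.0766). Gabarapl1 ranged over 9.27 to 11.1 FPKM in WT_DSS and 7.64 to 11.7 FPKM in WT, and Gabarapl2 over 23.8 to 28.4 FPKM in WT_DSS and 18.5 to 26.0 FPKM in WT. These last members were not called either. Sqstm1, the p62 receptor that carries ubiquitinated cargo and is itself degraded by autophagy, was at 52.6, 43.3, 52.7 and 53.1 FPKM in WT_DSS against 50.6, 45.9, 53.7 and 57.5 FPKM in WT. Its groups overlapped (difference -0.04 ± 0.12, limma adjusted p = 0.822).

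**Figure D1:**
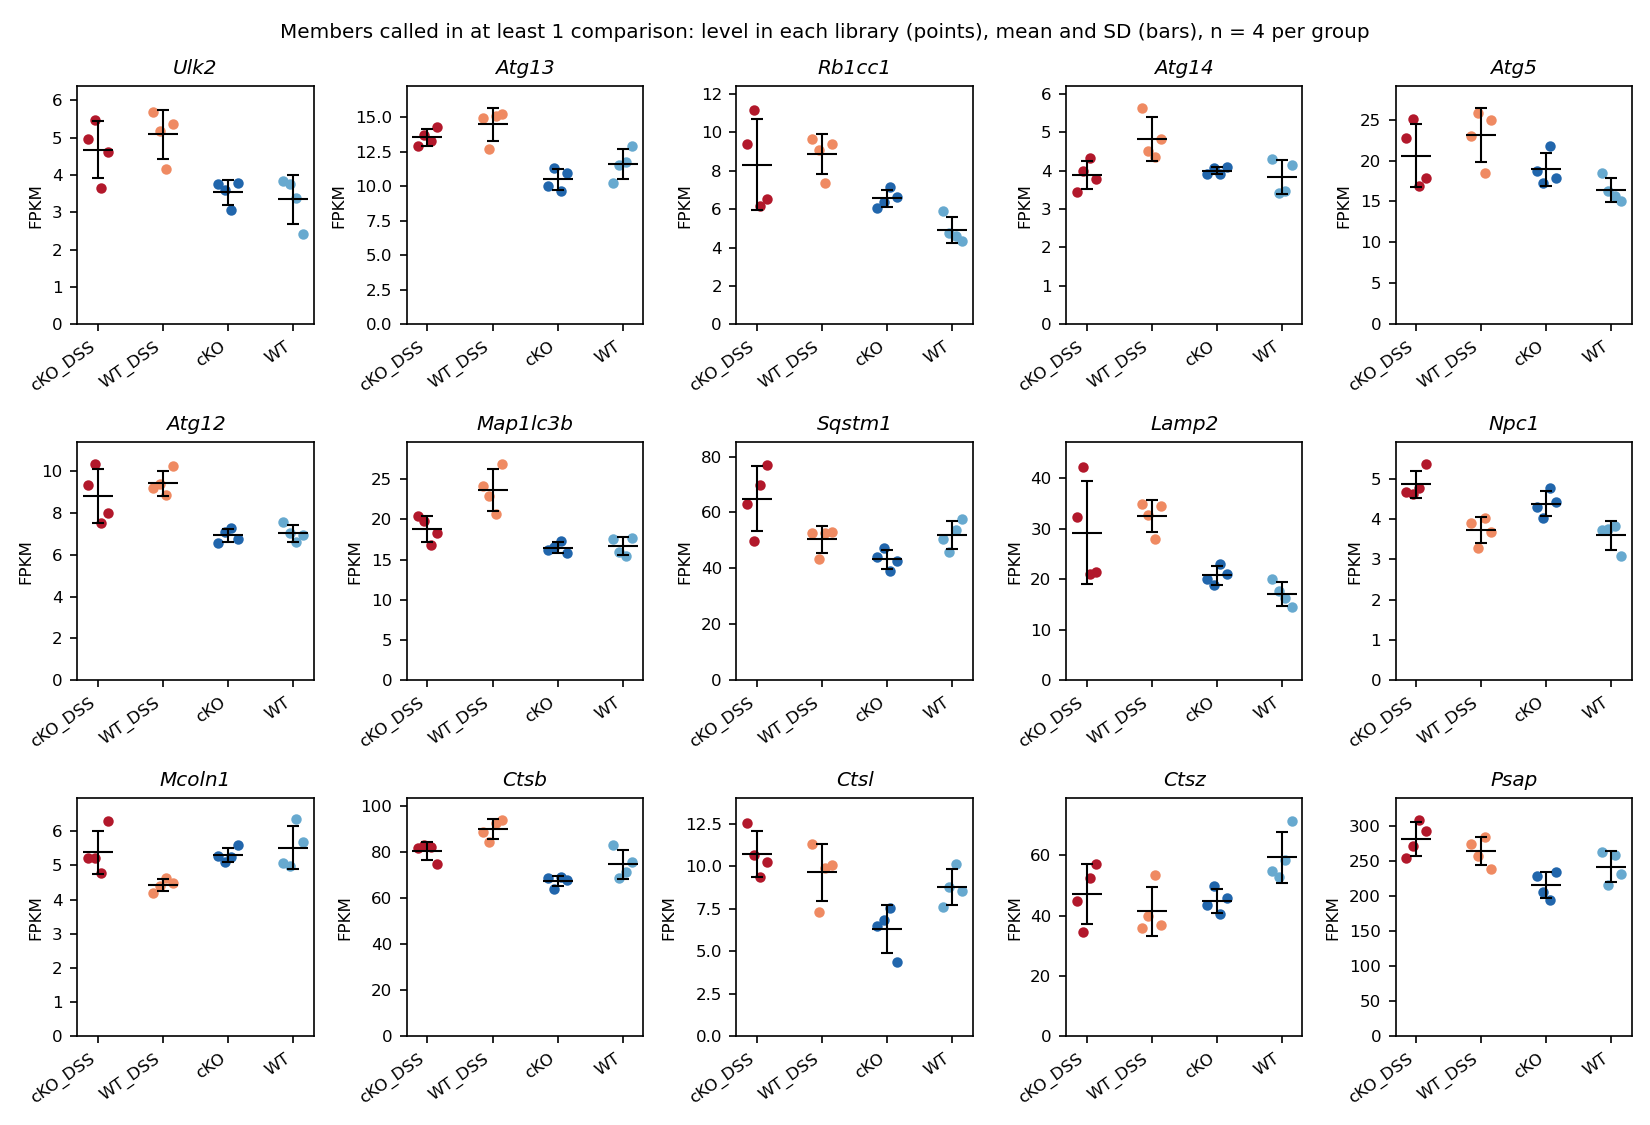
FPKM (vertical axes, starting at 0) of genes named for their calls, in the 4 libraries of cKO_DSS, WT_DSS, cKO and WT, with points for libraries and bars for the mean and SD. Map1lc3b and Lamp2 in WT_DSS lie above all WT libraries, while Sqstm1 and Ctsl in cKO_DSS lie above all cKO libraries.

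On the lysosomal side, Lamp2 encodes a membrane glycoprotein needed for autophagosome-lysosome fusion and, as LAMP2A, for chaperone-mediated autophagy. Lamp2 was at 34.8, 32.8, 28.0 and 34.6 FPKM in WT_DSS against 20.01, 17.7, 16.2 and 14.5 FPKM in WT. All WT_DSS libraries were higher, with a log2 difference of 0.89 ± 0.18 (limma adjusted p = 0.00377) and a ratio of means of 1.90. Mcoln1, the lysosomal calcium channel TRPML1, was the reverse case, with 4.19 to 4.62 FPKM in WT_DSS and 4.99 to 6.35 FPKM in WT. It fell by 0.26 on the log2 scale (SE 0.08, limma adjusted p = 0.0291), a call that 5 of the 16 single-library omissions ended (WT 3 or 4, or WT_DSS 1, 2 or 4), with adjusted p up to 0.0947. Lamp1 and Npc1 were not called (log2 differences 0.18 ± 0.12 and 0.04 ± 0.08).

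Of the hydrolases, Ctsb (cathepsin B, a cysteine protease) was at 88.3, 84.1, 92.6 and 93.8 FPKM in WT_DSS against 83.1, 68.4, 71.2 and 75.5 FPKM in WT. WT library 1 came close to the lowest WT_DSS library, and the difference of 0.27 ± 0.08 (limma adjusted p = 0.0191) was lost without WT library 2 or 3 or WT_DSS library 4 (adjusted p up to 0.0549). Ctsz (cathepsin Z, a carboxypeptidase) was at 36.01, 39.8, 53.5 and 36.9 FPKM in WT_DSS against 54.7, 52.8, 58.5 and 71.3 FPKM in WT. Only WT_DSS library 3 reached into the WT range; the fall was 0.51 on the log2 scale (SE 0.16, limma adjusted p = 0.0249), and was lost without WT library 3 or 4 or WT_DSS library 1, 2 or 4 (adjusted p up to 0.0777). The other 5 did not pass. Ctsa (cathepsin A, protective protein of sialidase and beta-galactosidase) was at 35.4, 33.1, 37.3 and 28.3 FPKM in WT_DSS against 30.8, 34.1, 34.5 and 37.4 FPKM in WT. Ctsd (cathepsin D, an aspartic protease) was at 72.2, 71.0, 74.5 and 47.7 FPKM in WT_DSS against 57.2, 70.2, 71.8 and 81.7 FPKM in WT. Both overlapped widely between groups. Ctsl (cathepsin L, a cysteine protease) was at 11.3, 7.32, 9.88 and 10.1 FPKM in WT_DSS against 7.61, 8.77, 10.1 and 8.58 FPKM in WT. Hexa (the alpha subunit of hexosaminidase A, which degrades ganglioside) was at 57.8, 55.6, 69.1 and 59.1 FPKM in WT_DSS against 69.1, 70.5, 64.5 and 76.1 FPKM in WT. Gla (alpha-galactosidase A, the enzyme deficient in Fabry disease) was at 5.70, 5.76, 5.17 and 5.69 FPKM in WT_DSS against 4.92, 5.33, 5.10 and 6.34 FPKM in WT. These 3 also overlapped, and over the 5 uncalled hydrolases the log2 differences ran between -0.21 and 0.11.

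With DSS in cKO epithelium, 6 of the 36 genes rose and 0 fell, which is 16.7% against 14.7% of all genes tested, and among all genes 8.07% were called higher and 6.64% lower. Machinery gave 3 of them (Atg12, Atg13 and Sqstm1), the hydrolases 2 (Ctsb and Ctsl) and the cofactors 1 (Psap). Median log2 differences were 0.11 over 21 machinery genes and 0.15 over 7 hydrolases, against -0.01 over all genes tested. Atg12, Atg13 and Ctsb were thus called with DSS in both genotypes. Groups did not overlap for 7 of the 36 genes (19.4%), beside 19.1% of all genes tested.

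Ctsl was at 12.6, 10.7, 9.39 and 10.3 FPKM in cKO_DSS against 6.50, 6.83, 7.58 and 4.34 FPKM in cKO. All cKO_DSS libraries were higher, with a log2 difference of 0.70 ± 0.15 (limma adjusted p = 0.00625) and a ratio of means of 1.70. Sqstm1 was at 63.1, 49.7, 69.9 and 77.0 FPKM in cKO_DSS against 43.9, 47.4, 38.9 and 42.6 FPKM in cKO. The groups stayed apart, cKO_DSS library 2 being close to cKO library 2, and the difference was 0.56 ± 0.12 (limma adjusted p = 0.00717). Without cKO_DSS libraries 3 and 4, whose deviations from the mean profile correlated with GC content across genes at 0.399 and 0.388 (Spearman), the Sqstm1 difference was 0.37 and not called (adjusted p = 0.071).

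Psap was at 253, 270.4, 309 and 293 FPKM in cKO_DSS against 228, 205, 195 and 234 FPKM in cKO. The groups did not overlap, with a difference of 0.38 ± 0.10 (limma adjusted p = 0.0189); the call was lost without cKO library 2 or 3 or cKO_DSS library 3 (adjusted p up to 0.0599), and without both cKO_DSS libraries 3 and 4 (0.28, adjusted p = 0.127). Atg13 was at 12.9, 13.7, 13.3 and 14.3 FPKM in cKO_DSS against 10.03, 11.4, 9.69 and 10.9 FPKM in cKO. Its groups did not overlap, and the difference was 0.34 ± 0.08 (limma adjusted p = 0.0125; 0.0564 without cKO_DSS libraries 3 and 4). Atg12 was at 9.32, 10.4, 7.49 and 8.003 FPKM in cKO_DSS against 6.57, 7.06, 7.28 and 6.77 FPKM in cKO. Library 3 of cKO_DSS was just above the highest cKO library; the difference of 0.30 ± 0.09 (limma adjusted p = 0.0321) was lost without cKO library 1, 2 or 4 or cKO_DSS library 1 or 2 (adjusted p up to 0.0827). Ctsb was at 81.6, 83.1, 82.2 and 74.5 FPKM in cKO_DSS against 68.6, 63.8, 68.9 and 67.6 FPKM in cKO. Its groups did not overlap, yet the difference of 0.25 ± 0.08 (limma adjusted p = 0.0371) was lost in 8 of 16 single-library omissions, namely any cKO library, cKO_DSS 1, 2 or 3, or WT_DSS 1 (adjusted p up to 0.0992).

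Several genes called in WT lay inside overlapping ranges in cKO. Lamp2 was at 32.3, 42.3, 21.0 and 21.3 FPKM in cKO_DSS against 19.97, 18.8, 23.1 and 21.1 FPKM in cKO, and Rb1cc1 at 9.42, 11.2, 6.18 and 6.55 FPKM in cKO_DSS against 6.08, 6.38, 7.15 and 6.64 FPKM in cKO. In both genes cKO_DSS libraries 1 and 2 were high and libraries 3 and 4 were within the cKO range (differences 0.42 ± 0.18 and 0.27 ± 0.15, limma adjusted p = 0.132 and 0.243). Map1lc3b was at 20.4, 19.8, 16.8 and 18.3 FPKM in cKO_DSS against 16.2, 16.6, 17.3 and 15.8 FPKM in cKO, with a difference of 0.18 ± 0.09 (limma adjusted p = 0.179). Map1lc3a, at 11.4, 8.45, 16.2 and 19.3 FPKM in cKO_DSS and 13.6, 12.8, 11.1 and 17.9 FPKM in cKO, overlapped fully. Gabarap, at 90.0, 102, 126 and 134 FPKM in cKO_DSS and 103, 116, 117 and 122 FPKM in cKO, did so too. Gabarapl1 ranged over 5.94 to 11.1 FPKM in cKO_DSS and 7.30 to 11.003 FPKM in cKO, and Gabarapl2 over 22.01 to 32.5 FPKM in cKO_DSS and 21.4 to 27.3 FPKM in cKO. None of these ATG8 genes was called.

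The other hydrolases were not called with DSS in cKO, with log2 differences between -0.16 for Gla and 0.16 for Ctsa. Ctsa was at 32.1, 37.3, 39.0 and 37.1 FPKM in cKO_DSS against 33.2, 32.8, 31.7 and 31.8 FPKM in cKO, with 1 library of cKO_DSS inside the cKO range. Ctsd was at 61.8, 72.3, 72.0 and 77.8 FPKM in cKO_DSS against 65.8, 68.4, 75.5 and 78.7 FPKM in cKO. Ctsz was at 44.7, 34.6, 52.6 and 57.2 FPKM in cKO_DSS against 43.5, 49.8, 40.5 and 45.8 FPKM in cKO. These groups overlapped. Hexa was at 60.1, 53.8, 68.4 and 70.5 FPKM in cKO_DSS against 57.9, 60.6, 48.1 and 59.7 FPKM in cKO, and Gla at 4.09, 3.45, 5.05 and 5.30 FPKM in cKO_DSS against 4.83, 5.40, 4.30 and 5.88 FPKM in cKO. For Ctsz and Hexa, cKO_DSS libraries 3 and 4 were the highest of both groups.

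**Figure D2:**
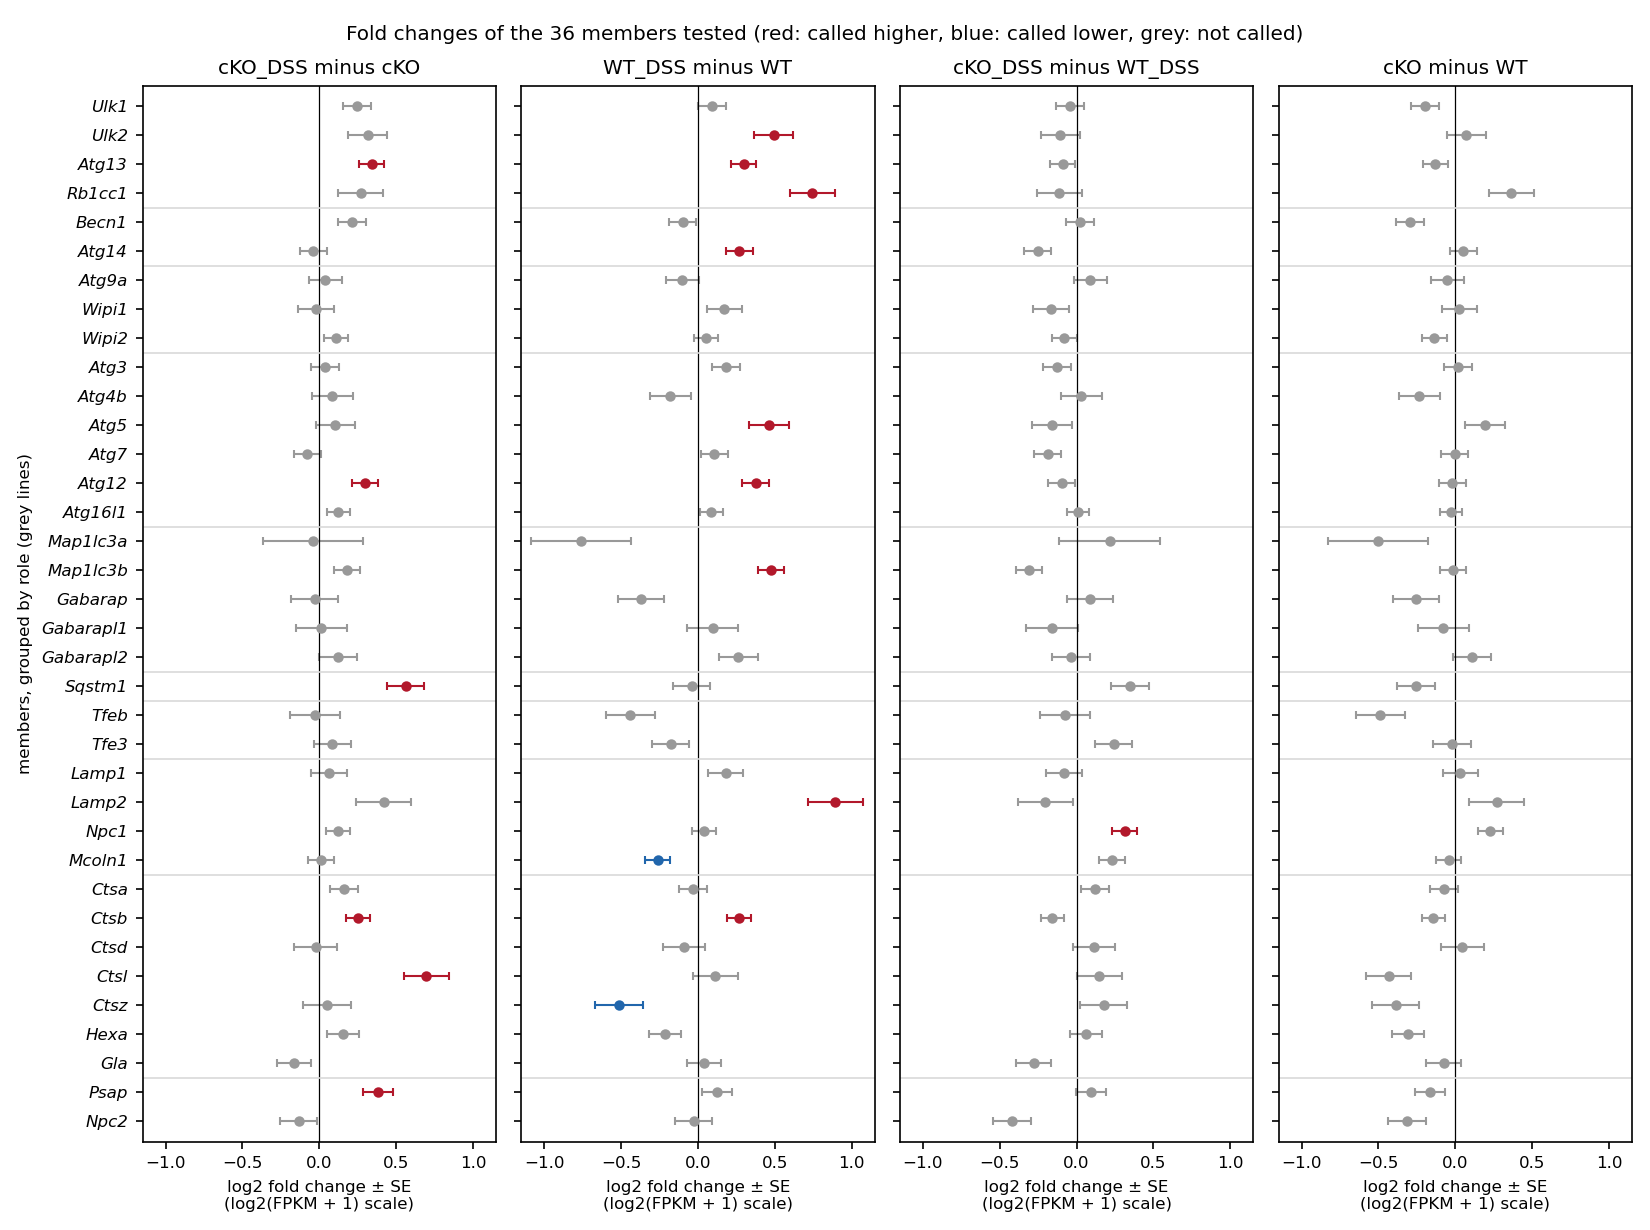
Log2 fold changes on the log2(FPKM + 1) scale (horizontal axes, with SE bars) of the 36 genes tested, in rows grouped by role, with 1 panel per comparison and red for genes called higher, blue for genes called lower and grey for genes not called (limma, adjusted p under 0.05). Calls lie in the DSS panels except for Npc1 after DSS, and the largest is Lamp2 with DSS in WT, at 0.89.

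The genotype comparison after DSS gave 1 call among the 36 genes, 2.78% against 3.7% of all genes tested, and it was higher in cKO_DSS (among all genes 2.03% were higher and 1.67% lower). Npc1 encodes the membrane transporter that exports cholesterol from the lysosome. It was at 4.67, 4.62, 4.77 and 5.36 FPKM in cKO_DSS against 3.89, 3.28, 4.02 and 3.67 FPKM in WT_DSS. The groups did not overlap, with a log2 difference of 0.31 ± 0.08 (limma adjusted p = 0.0432). The call was near the threshold: it was lost in 11 of 16 single-library omissions (WT 1, 2 or 3, cKO 1, 2 or 4, WT_DSS 1, 2 or 4, cKO_DSS 3 or 4; adjusted p up to 0.138), and without cKO_DSS libraries 3 and 4 together it was 0.26 (adjusted p = 0.285).

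Groups were also apart after DSS for Atg14, Map1lc3b, Mcoln1 and Ctsb, so 5 of 36 genes did not overlap, beside 10% of all genes tested. Map1lc3b was at 20.4, 19.8, 16.8 and 18.3 FPKM in cKO_DSS against 24.2, 22.9, 20.7 and 26.8 FPKM in WT_DSS, lower in each cKO_DSS library, yet not called (difference -0.31 ± 0.09, limma adjusted p = 0.0546). Npc2, the lumenal protein that passes cholesterol to NPC1, was at 34.8, 31.1, 32.8 and 42.8 FPKM in cKO_DSS against 39.9, 52.6, 55.4 and 43.0 FPKM in WT_DSS. Here cKO_DSS library 4 reached into the WT_DSS range, and the difference was -0.42 ± 0.12 (limma adjusted p = 0.0709).

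On water, 0 of the 36 genes were called between cKO and WT, against 0.0905% of all genes tested, while 9 had an unadjusted limma p under 0.05 (2404 of all 13255 genes did) and limma voom on recovered reads also called 0. Groups did not overlap for 7 genes (Rb1cc1, Becn1, Npc1, Ctsl, Ctsz, Hexa and Npc2), beside 15.5% of all genes tested. Ctsl, Ctsz and Hexa were lower in every cKO library than in any WT library, with log2 differences of -0.43 ± 0.15, -0.39 ± 0.16 and -0.31 ± 0.11 (limma adjusted p = 0.181, 0.221 and 0.184). Over all genes tested the water difference correlated with GC content at -0.52 (Spearman), and the GC-corrected differences were -0.55, -0.22 and -0.18, none called. Becn1, with the smallest unadjusted p of the set here, and Npc2 were also lower in every cKO library. Their differences were -0.30 ± 0.09 and -0.31 ± 0.12 (limma adjusted p = 0.154 and 0.214). Rb1cc1 was higher in every cKO library (0.36 ± 0.15, limma adjusted p = 0.224). Npc1, at 4.30, 4.02, 4.77 and 4.41 FPKM in cKO against 3.72, 3.75, 3.84 and 3.07 FPKM in WT, was likewise higher in every cKO library (0.23 ± 0.08, limma adjusted p = 0.186). After GC correction the differences were -0.40 for Becn1, -0.27 for Npc2, 0.17 for Rb1cc1 and 0.14 for Npc1, none called.

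Whether the DSS difference itself depended on genotype was tested as an interaction. No member passed, against 0.151% of all genes tested, with 9 at an unadjusted limma p under 0.05 (3074 of all 13255 genes were) and 0 by limma voom. The 3 smallest p-values belonged to Sqstm1 (0.60 ± 0.17, limma adjusted p = 0.0962), Ctsl (0.58 ± 0.21, adjusted p = 0.141) and Ctsz (0.56 ± 0.22, adjusted p = 0.158). In each the DSS difference was more positive in cKO than in WT. For Ctsl and Ctsz the cKO level on water was also the lower, as given above. Sqstm1 was likewise lower on average in cKO than in WT on water (-0.26 ± 0.12, limma adjusted p = 0.28). After DSS it was higher on average in cKO_DSS than in WT_DSS (0.35 ± 0.12, limma adjusted p = 0.125). The genotypes overlapped in both. Without cKO_DSS library 2 the interaction was called for 5 of the 36 genes, where 9.63% of all genes were called: Sqstm1 (0.72), Ctsz (0.70) and Becn1 (0.39) more positive in cKO, and Lamp2 (-0.67) and Rb1cc1 (-0.61) less so. Over all genes tested the interaction correlated with transcript GC content at 0.59 (Spearman), and over the members at 0.51. With all libraries, correction for GC content moved the interaction to 0.25 from 0.56 for Ctsz, to -0.14 from -0.47 for Lamp2 and to -0.15 from -0.48 for Rb1cc1. It moved to 0.44 from 0.60 for Sqstm1, to 0.78 from 0.58 for Ctsl and to 0.49 from 0.31 for Becn1, with none called.

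The transcription factors were low, and Tfeb varied widely between libraries. Tfeb was at 2.40, 1.97, 3.11 and 3.90 FPKM in cKO_DSS, 2.84, 3.00, 3.55 and 2.61 FPKM in WT_DSS, 3.41, 2.74, 2.72 and 2.59 FPKM in cKO, and 4.77, 3.23, 4.001 and 5.98 FPKM in WT. The WT libraries were mostly the highest, with overlap in every comparison. Its difference with DSS in WT was -0.44 ± 0.16 (limma adjusted p = 0.0519), and 0.05 after correction for GC content. Between cKO and WT on water the Tfeb difference was -0.49 ± 0.16 (limma adjusted p = 0.174), and -0.21 after that correction. Tfe3 was at 3.598, 2.41, 3.36 and 4.07 FPKM in cKO_DSS, 2.56, 2.75, 3.28 and 2.11 FPKM in WT_DSS, 3.03, 3.48, 2.68 and 3.12 FPKM in cKO, and 3.32, 3.13, 2.80 and 3.29 FPKM in WT. All groups overlapped, and no difference was called. Both are regulated mainly through their location in the cell, which RNA levels do not show.

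As sums, machinery and hydrolases stayed in similar proportion in all groups. Machinery summed to a median of 359.6 FPKM in cKO_DSS and 358 FPKM in WT_DSS, against 326 FPKM in cKO and 357 FPKM in WT. Hydrolases summed to 313 FPKM in cKO_DSS and 302 FPKM in WT_DSS, against 284 FPKM in cKO and 313 FPKM in WT. The cKO group on water had the lowest median in both sums. Its machinery sums, 316 to 339.4 FPKM, lay below those of all other libraries, the nearest being 339.9 FPKM in WT_DSS. Its hydrolase sums, 277 to 294 FPKM, lay below those of WT and cKO_DSS and overlapped those of WT_DSS. The sums were not compared by a test. Hydrolases over machinery ranged over 0.827 to 0.884 in cKO_DSS, 0.8287 to 0.909 in WT_DSS, 0.853 to 0.886 in cKO and 0.863 to 0.902 in WT, so the 4 groups overlapped in the ratio. A few genes of high level carry each sum, Gabarap and Sqstm1 for the machinery and Ctsb, Ctsd, Hexa and Ctsz for the hydrolases.

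**Figure D3:**
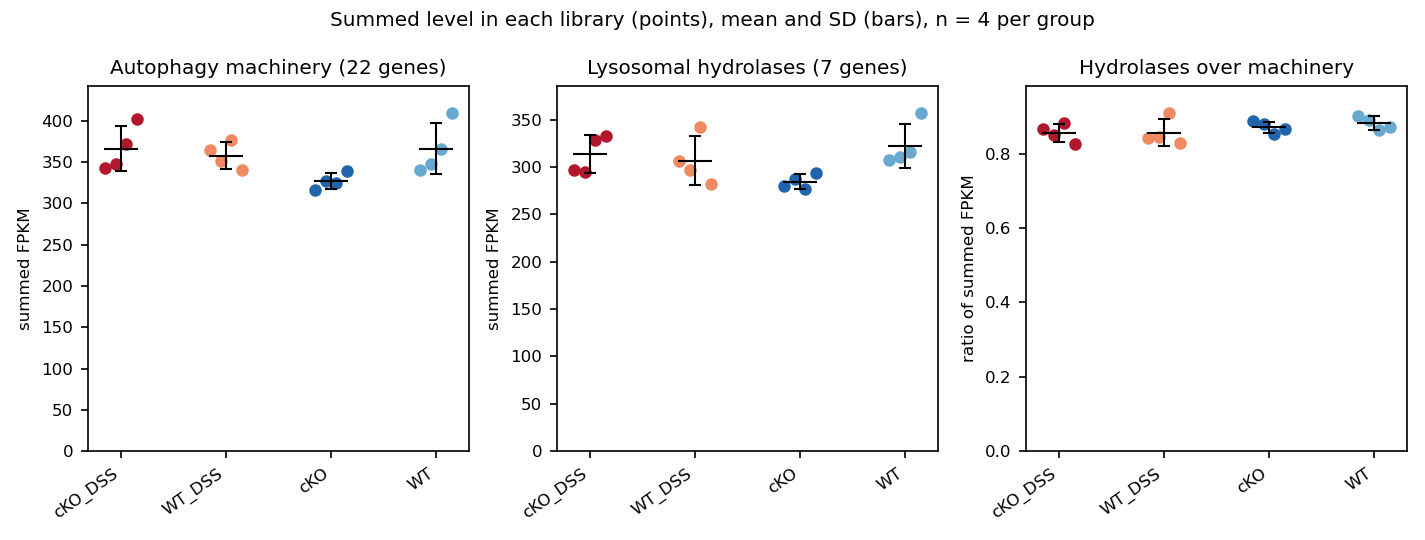
Summed FPKM of 22 autophagy machinery genes and of 7 lysosomal hydrolases, and the ratio of the sums, in each library of cKO_DSS, WT_DSS, cKO and WT, with bars for the mean and SD (n = 4). The ratio overlaps between all groups, over 0.827 to 0.909.

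GC content moved with these differences. Over all genes tested, the DSS difference in WT had a Spearman correlation of -0.53 with the GC content of the longest transcript, and over the 36 members -0.58. In cKO the same values were 0.05 over all genes and -0.28 over the members. Of 14 members under 50% GC, 6 rose and 0 fell with DSS in WT (median 0.22), and of 22 members at or above it 3 rose and 2 fell (median -0.03). Lamp2, at 38.7% GC, and Rb1cc1, at 39.1%, were the most AT-rich of the called genes. After each library was corrected for GC content, the differences with DSS in WT were 0.58 for Lamp2, 0.44 for Rb1cc1, 0.29 for Atg5, 0.19 for Atg12 and 0.54 for Map1lc3b, all still called. Ctsz, at 57.3% GC, was then -0.24 and not called (limma adjusted p = 0.109). Corrected values called 12 members with DSS in WT, 11 higher and 1 lower, beside 19.9% of all genes tested; 10 of these were called before, and Ulk1 (0.39) and Psap (0.30) were added. With DSS in cKO they called 9 members, all higher, beside 19.6% of all genes; the 6 above were kept, and Lamp2 (0.43), Ulk2 (0.33) and Rb1cc1 (0.28) were added. After DSS, Npc2 was then also called lower in cKO_DSS (-0.42, limma adjusted p = 0.0452). The part of GC content in the uncorrected differences was not tested further.

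**Figure D4:**
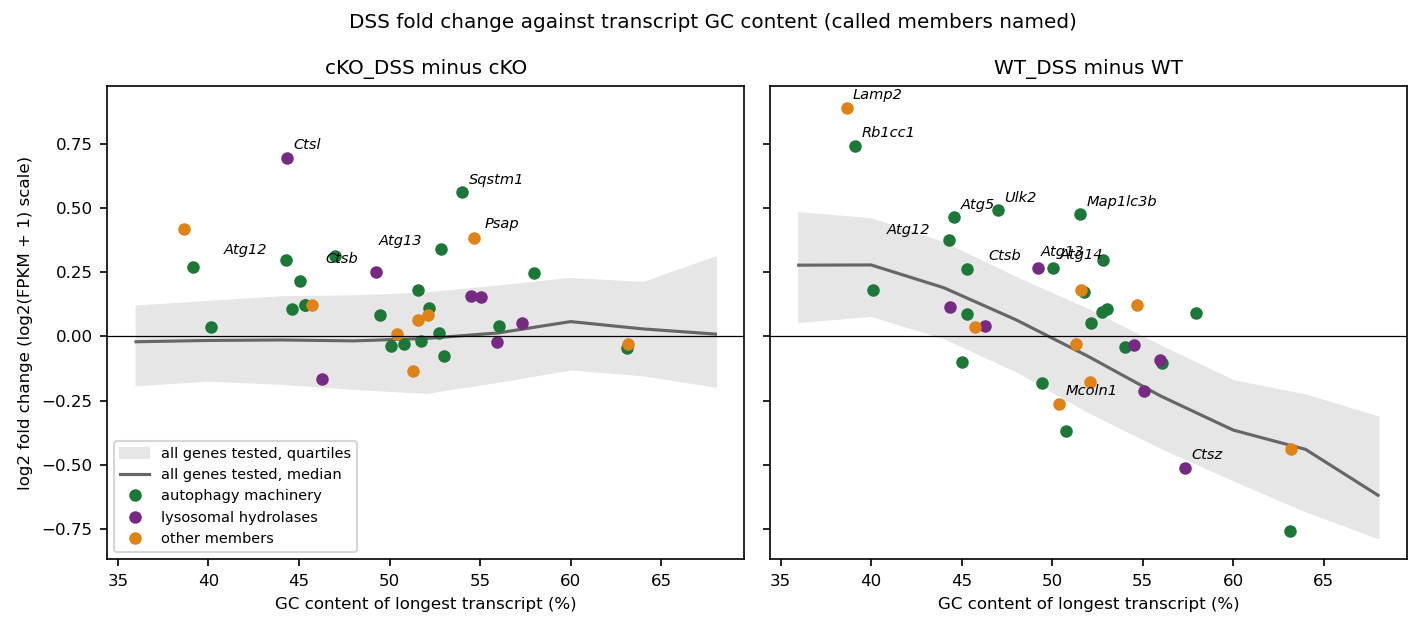
Log2 fold change with DSS against GC content of the longest transcript (%), in cKO at left and WT at right, with points for the 36 genes tested (called genes named) and a line and band for the median and quartiles of all genes tested. The line slopes down in WT and is flat in cKO, and Map1lc3b, Lamp2 and Rb1cc1 are among several called genes above the band in WT.

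Other genes of the pathway, taken from lists chosen with earlier results known, moved as follows with DSS. Their counts stand beside 15% of all genes tested called higher and 13.5% lower in WT, and 8.07% higher and 6.64% lower in cKO. Of 19 further autophagy machinery genes tested, 3 rose and 0 fell in WT, among them Stx17 (0.46) and Snap29 (0.48), the SNARE proteins that fuse autophagosomes with lysosomes, and 0 were called in cKO. Of 10 further cargo receptors, 5 rose and 1 fell in WT, with Nbr1 (0.34), a partner of p62, and the mitophagy receptor Bnip3l (0.42); in cKO 1 rose, Nbr1 (0.31). Of 32 further hydrolases and cofactors, 6 rose and 6 fell in WT, with the cathepsins Ctsc (0.80) and Ctss (0.47) at the smallest p-values; the cathepsin Ctsf, named after its value was seen, fell (-0.49). In cKO 5 rose and 0 fell, led by Lgmn (0.67), which encodes legumain, a protease that processes cathepsins.

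The same shares of all genes apply to the lysosomal membrane lists. Subunits of the vacuolar ATPase, the proton pump that acidifies lysosomes, numbered 16: 6 rose and 0 fell in WT, with Atp6v0a2 (0.35) and Atp6ap2 (0.64), and 2 rose in cKO, Atp6v0d1 (0.25) and Atp6ap1 (0.24). Of 10 further lysosomal membrane proteins, 3 rose and 1 fell in WT, with Scarb2 (0.51) and Laptm4b (0.70); Scarb2 (0.42) was the 1 that rose in cKO. Of 10 genes of lysosomal nutrient sensing, 1 rose, Rragc (0.37), and 3 fell in WT, led by Lamtor4 (-1.19), and 0 were called in cKO. Between genotypes after DSS, 2 further hydrolases were higher in cKO_DSS, Smpd1 (acid sphingomyelinase; 0.39, limma adjusted p = 0.0188) and Lgmn (0.52, adjusted p = 0.0359). In every list 0 genes were called on water or in the interaction by limma.

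Lysosomal proteases such as cathepsins are abundant in macrophages, so marker levels are given beside these results. The 12 monocyte and macrophage markers summed to 8.31 to 12.5 FPKM in cKO_DSS and 7.54 to 11.3 FPKM in WT_DSS, against 4.87 to 7.41 FPKM in cKO and 4.33 to 6.54 FPKM in WT. None of the 12 was at 0 in every library of a group, and both DSS groups lay above both water groups in the sum. Of the 3 that passed the filter, Lyz2, which carries much of the sum, and C1qb rose with DSS in WT (1.151 and 0.79) and in cKO (0.84 and 0.58). Cd68, a lysosomal protein of macrophages, went the other way and fell with DSS in WT (-0.50, limma adjusted p = 0.0404). In cKO it was not called, at 1.02 to 1.66 FPKM in cKO_DSS against 1.82 to 2.51 FPKM in cKO. The part of such cells in the cathepsin differences was not tested. The 8 fibroblast markers summed to 11.1 to 13.1 FPKM in cKO_DSS and 14.3 to 17.4 FPKM in WT_DSS, against 6.52 to 7.99 FPKM in cKO and 4.85 to 7.29 FPKM in WT. The 10 epithelial markers summed to 10625 to 12369 FPKM in cKO_DSS and 8416 to 9987 FPKM in WT_DSS, against 8229 to 12434 FPKM in cKO and 7215 to 9854 FPKM in WT. Single epithelial markers were called in both directions. With DSS, Cdx2 was lower in WT (-0.56). In cKO, Slc26a3 was lower (-0.66), while Krt18 (0.65) and Epcam (0.27) were higher. Between genotypes after DSS, Krt18 was higher in cKO_DSS (0.70, limma adjusted p = 0.0108). The 7 goblet cell markers summed to 4773 to 6352 FPKM in cKO_DSS and 3714 to 5705 FPKM in WT_DSS, against 2435 to 4482 FPKM in cKO and 2335 to 5481 FPKM in WT, apart between cKO_DSS and cKO and overlapping between WT_DSS and WT. Agr2, which folds mucins, was called higher with DSS in both genotypes (0.39 in WT and 0.49 in cKO). The 8 markers of T cells and intraepithelial lymphocytes summed to 20.1 to 29.5 FPKM in cKO_DSS and 18.6 to 23.5 FPKM in WT_DSS, against 11.6 to 24.4 FPKM in cKO and 14.7 to 16.9 FPKM in WT. Gzmb, which encodes granzyme B, was called higher with DSS in both genotypes (0.72 in WT and 0.94 in cKO). When the Y-linked level was entered as a covariate, 0 of the 36 members were called with DSS in either genotype (6 in WT and 4 in cKO at an unadjusted limma p under 0.05). Of all genes, 1.46% were called in WT and 0.709% in cKO. Summed Y-linked reads did not overlap between water and DSS libraries. This fit therefore cannot separate DSS from the Y-linked level, and no conclusion is drawn from it.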

How the data were processed

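RNA from colonic epithelial cells was sequenced in 16 libraries, 4 to a group, grouped by genotype and treatment labels. Adapter reads, reads with N bases and low-quality reads had been discarded, per the labels' protocols. The tools were featureCounts 1.5.0-p3 and DESeq2 1.20.0 with build mm10, per the submitters' processing notes. Aligner, annotation release and strand setting: not given in the sources used here. Without strand, reads shared with an overlapping gene cannot be told apart. Such pairs include Ctsb with Fdft1, Lamp1 with Grtp1, Ctsz with Nelfcd, Npc1 with Rmc1, Map1lc3b with Zcchc14, Atg4b with Thap4 and Atg9a with Ankzf1. The authors deposited FPKM values per gene and library, and these were the values tested; the deposited gene lengths and FPKM steps gave back whole reads for 100% of values above 0 (within 0.05 of a whole number). A gene was kept when 4 or more of 16 libraries held 1 FPKM or more (13255 genes), and log2(FPKM + 1) was fitted with limma 3.58.1 in R 4.3.3 (a mean per group, trended variance, two-sided, Benjamini-Hochberg over all genes kept, called at an adjusted p under 0.05). Fold changes on this scale understate those of low genes. The fit, tested on simulated data, used all 16 libraries. No libraries of a group agreed within sampling noise (lowest chi-square per degree of freedom 6.40).

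The members and lists were chosen with earlier results of these data known. Values in every library are given for members called (up to 5 with the smallest p in a comparison), ATG8 genes, Sqstm1, Tfeb, Tfe3 and the hydrolases, and the 3 smallest p in the interaction; lists name the 2 smallest p among called genes, except 1 gene that is not reported here. Alternatives were a pseudocount of 0.1, no filter or one of 5 FPKM, quantile and median scaling, limma voom on recovered reads, sample weights, a replicate block, only the 8 libraries compared, loess correction for transcript GC content (span 0.5; 97.1% of genes had a value), a Y-linked covariate, and leaving out libraries.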

Additional observations from a re-analysis of the deposited data

Results flagged for a closer look

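In 7 of 148 sets of 4 libraries (37 genes in 4 groups), 1 library stood far from the other 3 by its gap over the range. Chance gives about 5% of sets. The 148 sets include Atg2a, which is not among the 7. It was at 0 throughout WT, WT_DSS and cKO_DSS, so these sets have no range. In cKO it was at 0.00851 FPKM in library 1 and at 0 in the others, too few reads to judge. In WT_DSS, Atg13 was at 12.7 FPKM in library 2 against 14.97 to 15.2 FPKM in the others. Sqstm1 was at 43.3 FPKM in the same library against 52.6 to 53.1 FPKM. Ctsd was at 47.7 FPKM in WT_DSS library 4 against 71.0 to 74.5 FPKM, and Gla at 5.17 FPKM in WT_DSS library 3 against 5.69 to 5.76 FPKM. Atg16l1, which places the conjugation enzymes on the membrane, was at 4.43 FPKM in cKO_DSS library 2 against 3.59 to 3.73 FPKM, and at 3.92 FPKM in WT library 4 against 3.39 to 3.47 FPKM. Npc1 was at 3.07 FPKM in WT library 4 against 3.72 to 3.84 FPKM.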

How the results depend on the processing

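Of 18 calls of members, 9 held in all 16 single-library omissions: Ulk2, Atg13, Rb1cc1, Atg12, Map1lc3b and Lamp2 with DSS in WT, and Atg13, Sqstm1 and Ctsl with DSS in cKO. No difference reversed. All 18 calls held with a pseudocount of 0.1, median scaling, limma voom and sample weights, 17 with quantile scaling and 13 without a filter. Members called numbered 0 on water, 0 to 2 between genotypes after DSS, 6 to 14 with DSS in WT (7 without WT library 3, 6 without WT_DSS library 4), 3 to 6 with DSS in cKO (3 without cKO library 2) and 0 to 5 in the interaction, over the single-library omissions. The genotype comparison after DSS, with 1 call, gave 0 without a filter, 0 with only its 8 libraries, 0 without cKO_DSS libraries 3 and 4, 0 without WT library 4 and WT_DSS library 2, 2 after GC correction (1 higher, 1 lower) and 11 with sample weights (5 higher, 6 lower), where 26.3% of all genes were called. DSS in WT, with 11 calls, gave 0 with the Y-linked covariate and 6 without WT library 4 and WT_DSS library 2. DSS in cKO, with 6 calls, gave 0 with that covariate and 3 with only its 8 libraries. The interaction, with 0 calls, gave 10 with sample weights (28.1% of all genes); the fit of only the 8 libraries compared was not possible for it. Fits of fewer libraries hold fewer residual degrees of freedom, and dropping the filter adds genes to the adjustment. A fit with the Y-linked covariate cannot separate it from DSS, because summed Y-linked reads did not overlap between water and DSS libraries. Beyond this, the cause of these moves was not tested.

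Replicate numbers were not taken to pair the libraries: same-numbered libraries correlated between -0.199 and 0.300 in their deviations from group means. Libraries that correlated best with their own number were 7 of 8 between cKO_DSS and WT, which no comparison set against each other (0.0923 to 0.227), and 0 to 3 of 8 in the other pairs of groups. With a replicate block, members called were 0 on water, 0 between genotypes after DSS (Npc1 0.31, adjusted p = 0.0556), 12 with DSS in WT, 6 with DSS in cKO and 0 in the interaction. Read totals were alike in all libraries, while mitochondrial shares differed between DSS and water as given above. At 1 read or none, Atg2a could not be compared.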
